A study of Mus musculus with 46 samples.

Results

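The members described here are the 3p arms of a late-registered block of mouse microRNAs (miRNAs), miR-6896-3p to miR-7094-3p, a stretch of the registry filled largely with mirtrons. They were chosen by name alone, as every 3p name of that number block on the array, a letter suffix allowed, which gave 199 of the 1881 miRNAs measured. Agilent mouse miRNA arrays (1 colour, Cy3) were hybridised with total RNA from heart, liver and brain of male C57BL6 mice carrying an Il1a knock-out, and every group shares that strain and that deletion. Each organ was cut into pieces, stored in the cold (4 °C) or at room temperature (RT), and RNA was isolated after 0, 1, 3, 6, 12, 24, 48 or 96 h, so that RNA integrity, given as the RIN, fell to different degrees. Each combination of tissue, temperature and time had 1 array. The 45 arrays analysed were 7 of heart, 6 of liver and 8 of brain at 4 °C and 8 of each tissue at RT. The unstored heart piece of the 4 °C series (0 h) is kept out of all comparisons, and liver kept cold for 6 h or 96 h was not analysed here. Per the study's methods the tissues stored at one temperature came from the same animal. The labels do not give the physical slides, and slide below stands for the set of pieces of 1 organ at 1 temperature. Within a tissue the slide, the animal and the temperature therefore cannot be told apart. There were no biological replicates of a condition on the arrays, and the p-values below use arrays of different storage times as the replicates of a tissue or of a RIN class. The samples are bulk tissue, in which fewer cells of a type and less RNA per cell cannot be told apart.

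A mirtron is a short intron whose spliced and debranched lariat folds into a miRNA hairpin. It therefore bypasses cleavage by Drosha in the nucleus and is cut by Dicer in the cytoplasm. The 3p arm of such a hairpin is the 3′ end of the intron, which in mammals carries a pyrimidine-rich tract and ends in AG at the splice site. The 5p arm begins at the 5′ splice site and is often rich in guanine. A miRNA recognises its targets mainly through its seed, bases 2 to 8 from its 5′ end. Strands of a hairpin are not loaded into Argonaute equally, and the strand that is not kept is degraded.

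Mature sequences from RefSeq (GRCm38.p6) matched 175 of the 199 members, and what follows on sequence refers to these 175. Of the 9 members detected on 30 or more arrays, 8 are shown first because they were seen on most arrays. Capitals mark the seed, and all sequences run 5′ to 3′. The word within means inside the span of that gene, on either strand.
miR-7022-3p (chr4:148146937-148146958, minus strand, within Fbxo6): aCAAGCCUgaccucugccccca
miR-6976-3p (chr17:46553827-46553847, minus strand, within Srf): aUCUCCCUcccaacuccccag
miR-6943-3p (chr13:55453150-55453171, plus strand, within Grk6): cUGCUUCCauaccccuacccag
miR-7085-3p (chr9:44400465-44400486, plus strand, within Slc37a4): uAGCUGGCcucuccccaccuuc
miR-7080-3p (chr8:123130147-123130168, plus strand, within Cpne7): cAGGCUCAccccuccguucccu
miR-7046-3p (chr7:24970010-24970031, minus strand, within Rabac1): uGAACCACccaucccccuacag
miR-6934-3p (chr11:119154076-119154097, minus strand, within Tbc1d16): aCCUCUGCuccugccccaccag
miR-7052-3p (chr7:44470391-44470411, plus strand, within Josd2): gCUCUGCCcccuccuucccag
Each of these 8 has a run of 4 cytosines, and miR-7047-3p, the member of this class that is not shown, has none.

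The next 6 were called in at least 1 comparison of level and were detected on fewer arrays, and they show how far the called members differ in sequence.
miR-7036b-3p (chr5:34574192-34574213, plus strand, within Add1): uUCCUGGUgggccucggggucc
miR-7045-3p (chr6:125097066-125097086, plus strand, within Chd4): uCUCCCCCcucccccgcacag
miR-6937-3p (chr12:28679367-28679389, plus strand, within Adi1): uCACAGGUucccccuugcacuag
miR-7082-3p (chr9:21075499-21075520, minus strand, within Raver1): gCCCCCCUugcugucugucucc
miR-7055-3p (chr7:45173339-45173361, plus strand, within Slc17a7): uUGCUACUuugauaccccaccag
miR-7024-3p (chr5:33898910-33898932, minus strand, within Nelfa): cCAGCAGUcccugcucccuacag
Of these, miR-7036b-3p stood apart in composition: it had 31.8% cytosine, 59.1% pyrimidine, no run of 4 cytosines and no AG end.

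A further 3 sequences, chosen after their values were seen, belong to members detected on the RT liver arrays from 24 h on, and on no other array.
miR-7066-3p (chr8:70102524-70102546, minus strand, within Ncan): uCUACCCAuugccugccucccag
miR-7063-3p (chr7:141620772-141620791, plus strand, within Ap2a2): uGCUCUCUgccccucuuaag
miR-6924-3p (chr11:69882032-69882052, minus strand, within Acap1): uCCUUAAUccccacccuucag
The last set gives the first members in number order that were detected on no array and had a sequence.
miR-6896-3p (chr1:34117408-34117429, plus strand, within Dst): uUUCUCUCucucaccuacaaac
miR-6898-3p (chr1:36348688-36348708, minus strand, within Kansl3): aAGUCUCUuuguaccuucucu
miR-6899-3p (chr1:64042438-64042460, minus strand, within Klf7): uUGUCCUUcugugucuucugcag
None of these 3 has a run of 4 cytosines.

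The mirtron label was checked on the sequences. Of the 175 matched members, 174 (99.4%) lay within the span of a protein-coding gene. The strand of the gene was not compared, and no such share is given for the other miRNAs. Whether each lies in an intron could not be read from the tables used here, which hold gene spans without exons. Of 170 members with a hairpin, 126 (74.1%) ended exactly at its 3′ end and 154 ended within 2 nt of it. Pyrimidines made up 71.8% of the bases on average, against 32.8% in the 5p arms of the same block and 50.2% in the other miRNAs of the array with a sequence. AG was the last dinucleotide in 77.7% of the members, in 6.82% of the 5p arms and in 8.51% of the other miRNAs. The seeds were diverse, with 168 different seeds among the 175 members. Only 6 seeds were shared, by 13 members in all, and none of the members detected on 5 or more arrays shared its seed with another member.

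As a check of the samples, all 4 of 4 liver markers, 4 of 4 heart markers and 4 of 4 brain markers among the miRNAs had higher levels on every array of their own tissue than on any other array. The arrays with RIN over 6 were 13 of heart, 6 of liver and 14 of brain. The arrays with RIN of 6 or lower were 2 of heart (RT 48 h and 96 h), 8 of liver (RT 1 h to 96 h and 4 °C 48 h) and 2 of brain (RT 48 h and 96 h). Between 268 and 798 miRNAs were detected per array. For arrays the number of arrays, not a read depth, limits the precision.

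Most members were never detected. A miRNA was counted as detected where the scanner software's gene-level flag was set on that array. By this flag 130 of the 199 members were detected on no array, as were 809 of all 1881 miRNAs. Of the other 69 members, 46 were detected on 1 to 4 arrays and 23 on 5 or more, and only miR-7022-3p was detected on all 45. The 5p arms of the same block were detected far more widely: 64 of 200 on no array, 105 on 5 or more and 23 on all 45. More 5p than 3p arms were detected on each of the 45 arrays.

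**Figure D1:**
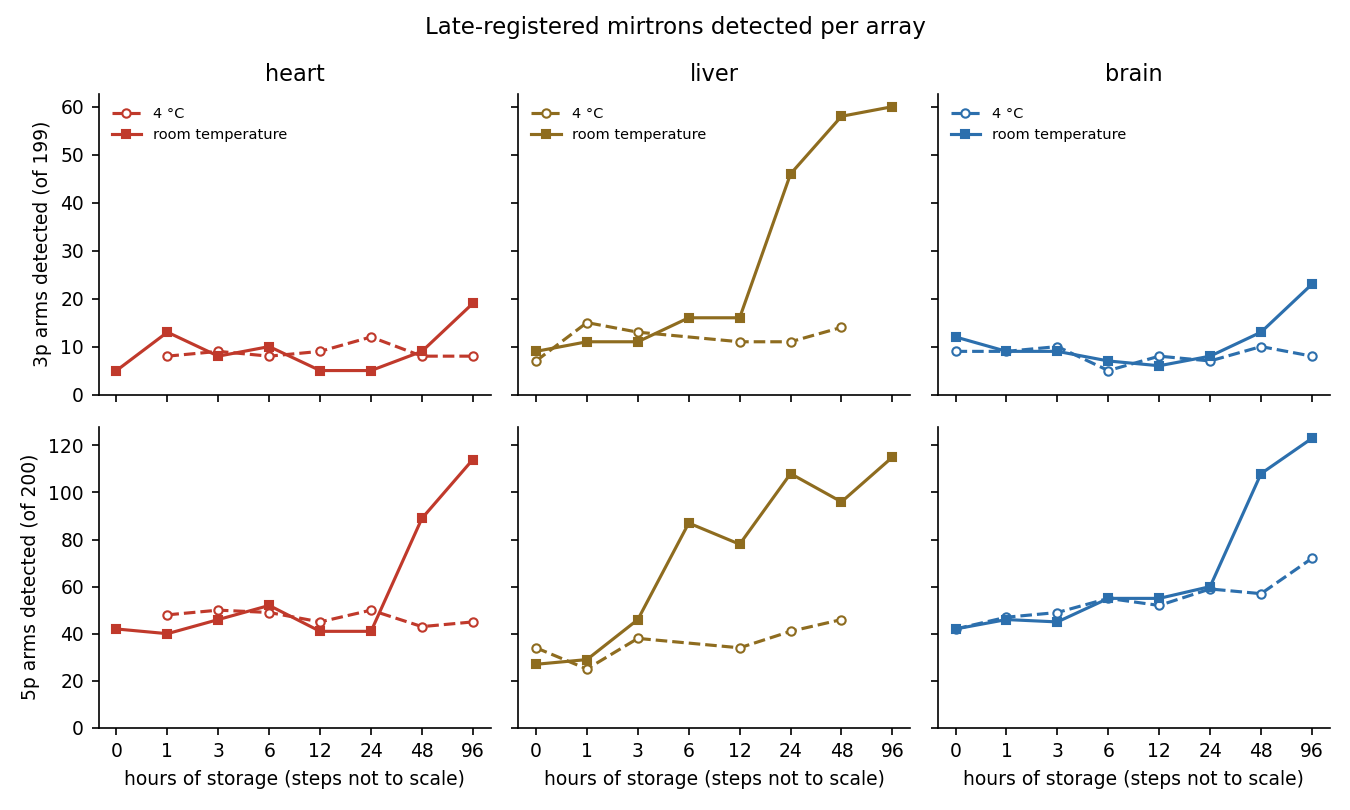
Members detected on each of the 45 arrays (number of 3p arms) with the 5p arms of the same block, by tissue, temperature and storage time in hours. The RT liver arrays from 24 h on stand out with 46, 58 and 60 members, while the 33 arrays with RIN over 6 had 5 to 15.

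Within single hairpins the 5p arm was the one usually seen. Of 198 names with both arms on the array, 90 had only the 5p arm on 5 or more arrays, 9 only the 3p arm, 14 both and 85 neither. The 3p arm was detected on more arrays than its partner for 32 names and the 5p arm for 118. Among the members seen most, miR-7022-3p was detected on 45 arrays and its 5p partner on 4. For miR-6976-3p and miR-6943-3p the counts were 44 and 42 arrays, and both 5p partners were detected on none. The reverse held for miR-7045, miR-6937 and miR-7082, whose 5p arms were detected on all 45 arrays and whose 3p arms were detected on 20, 15 and 6.

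The members past the filter of 5 arrays fell into a widely seen and a sparsely seen class. After miR-7022-3p and miR-6976-3p came miR-6943-3p, miR-7080-3p and miR-7085-3p with 42 arrays each, miR-7047-3p with 41, miR-7046-3p with 34, miR-6934-3p with 33 and miR-7052-3p with 30. The sparsely seen ones were miR-7045-3p with 20 arrays, miR-7055-3p with 16, miR-6937-3p with 15, miR-6897-3p with 10 and miR-7036b-3p with 8. Then followed miR-6968-3p and miR-7083-3p with 7, miR-6982-3p, miR-7082-3p and miR-7069-3p with 6, and miR-7016-3p, miR-6923-3p, miR-7024-3p and miR-7062-3p with 5. Below the filter, 25 members were detected on 3 or 4 arrays. Those on 4 arrays were miR-7067-3p, miR-6984-3p, miR-7051-3p, miR-6999-3p, miR-6936-3p, miR-7084-3p and miR-6929-3p. Those on 3 were miR-6902-3p, miR-7028-3p and the 16 members named further on, and another 21 members were detected on 1 or 2 arrays.

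**Figure D2:**
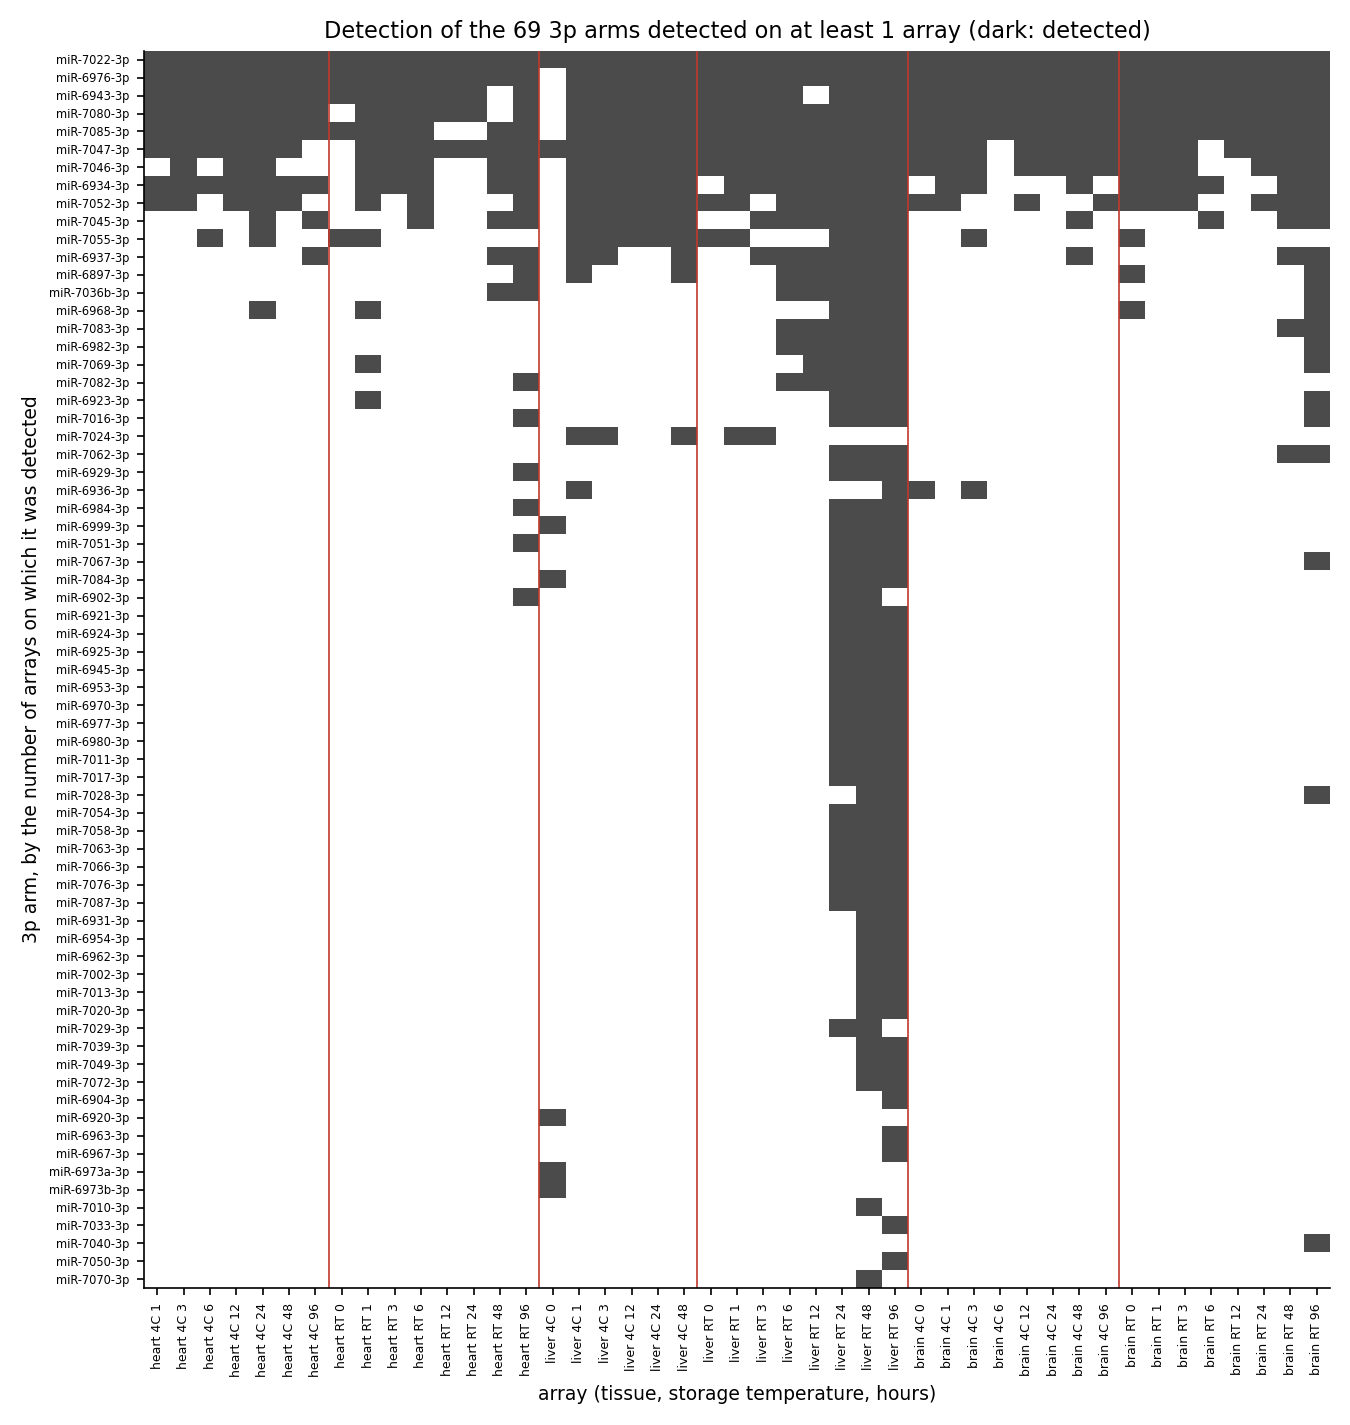
Detection of the 69 members seen on at least 1 array (one line per member, ordered by number of arrays) across the 45 arrays, ordered by tissue, temperature and storage time; a filled cell is a detected member. A few members fill nearly every column, and the columns of liver at RT from 24 h on fill most of the rest.

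More members were detected on arrays of lower RNA integrity. On the 33 arrays with RIN over 6, 5 to 15 members were detected (median 9), and on the 12 arrays with RIN of 6 or lower 9 to 60 (median 16). The intact ranges were alike in the tissues: 5 to 13 in heart (median 8), 7 to 15 in liver (median 11) and 5 to 12 in brain (median 8.5). In all, 23 members were detected on at least 1 array with RIN over 6, and the other 46 of the 69 (66.7%) only on arrays with RIN of 6 or lower, against 26.9% of the 1072 miRNAs detected on any array. At 96 h at RT, 19 members were detected in heart (RIN 2.2), 60 in liver (RIN 2.3) and 23 in brain (RIN 3.3), against 5, 9 and 12 on the 0 h arrays at RT. All miRNAs detected went from 390 to 683 in heart, from 310 to 726 in liver and from 491 to 798 in brain between the same arrays. The ratio of members at 96 h over 0 h was 3.8 in heart, 6.67 in liver and 1.92 in brain by this flag, but 1.04, 3.38 and 1.19 where a member counted once 1 of its spots was well above background. Each ratio sets 1 array against 1 array. By the flag, the 0 h count was the lowest of the intact arrays in heart and the highest in brain.

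The highest numbers were found in liver at RT. From 0 h to 96 h the 8 arrays gave 9, 11, 11, 16, 16, 46, 58 and 60 members, at RIN 7.1, 6.0, 4.1, 2.8, 2.7, 2.7, 2.4 and 2.3. By the detection flag the step lay between 12 h, with 16 members, and 24 h, with 46. These 2 arrays had the same RIN of 2.7. The liver array of 48 h at 4 °C, at RIN 3.4, had 14 members. Counted by at least 1 spot well above background, the 8 RT arrays gave 26, 44, 21, 24, 73, 52, 73 and 88 members. This count was lower at 24 h than at 12 h, and it was also 73 on the intact liver array of 0 h at 4 °C. On the 3 RT liver arrays from 24 h on (called the late liver arrays below), the members made up 6.53%, 9.08% and 8.26% of all miRNAs detected, against 0.965% to 4.55% on the other 42 arrays. The 5p arms followed another course over the same 8 liver arrays, with 27, 29, 46, 87, 78, 108, 96 and 115 detected. Their largest step lay between 3 h and 6 h.

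Altogether 64 members were detected on a late liver array, 44 on all 3 of them and 33 nowhere else. Without those 3 arrays, 36 members were detected instead of 69. The 3 arrays were of 1 slide, as defined above, and of 1 animal's liver. A part of the slide or the animal in this count was not tested. The 16 members detected on all 3 late liver arrays and nowhere else were miR-6921-3p, miR-6924-3p, miR-6925-3p, miR-6945-3p, miR-6953-3p, miR-6970-3p, miR-6977-3p, miR-6980-3p, miR-7011-3p, miR-7017-3p, miR-7054-3p, miR-7058-3p, miR-7063-3p, miR-7066-3p, miR-7076-3p and miR-7087-3p.

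The sets detected at 96 h at RT in the 3 tissues overlapped, but the late liver set was much larger. Heart and liver shared 18 members, 94.7% of the heart set and 30% of the liver set. Brain and liver shared 22, 95.7% of the brain set and 36.7% of the liver set. Heart and brain shared 14, 73.7% of the heart set and 60.9% of the brain set, and the same number was common to all 3 tissues. Over all miRNAs, heart and liver shared 82.6% of the heart set and 77.7% of the liver set, brain and liver 72.8% and 80%, and heart and brain 89.6% and 76.7%. Over all times, 39 members were detected on liver arrays only, 1 on brain arrays only and 0 on heart arrays only, which is 56.5%, 1.45% and 0% of the 69. Of all miRNAs detected, 11.7% were seen on liver arrays only, 11.3% on brain arrays only and 2.71% on heart arrays only.

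All of these signals were low. The signal here is the software's total gene signal where a miRNA was detected, and the sum of its probe signals where it was not. Both sum over a miRNA's spots and are given in the scanner's arbitrary units. The highest signal of any member was 97.27, for miR-7045-3p in liver at RT for 96 h, and the highest of any miRNA was 177210. On arrays with RIN over 6 the highest member signal per array ranged from 7.39 to 12.5, and on the late liver arrays it was 45.8, 59.0 and 97.3. Members accounted for 0.0073% to 0.0252% of the summed signal of detected miRNAs on arrays with RIN over 6 and for 0.173% to 0.292% on the late liver arrays. The lowest signal that was called detected lay between 0.808 and 1.78 on the 45 arrays. The median signal of the detected members lay between 2.12 and 11.6 per array. The signal is a measure per probe set, and its size is not compared between miRNAs here beyond these ranges.

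For the 16 members seen on late liver arrays only, signal and normalised level gave different pictures. In liver at RT their median signal was 1.14 on the 0 h array, 2.54 on that of 12 h, and 4.26, 7.62 and 9.9 on the late liver arrays. On the late liver arrays their signals ran from 2.64 to 24.1, and on the other 42 arrays from -0.23 to 6.58. The ranges overlapped, and at 96 h at RT the median was 3.01 in heart and 2.92 in brain. Measured as normalised log2 level, the median was 2.10 on the late liver arrays and 1.85 on the liver arrays with RIN over 6. Over the whole block, 113 of 199 members had a higher signal in liver at RT for 96 h than at 0 h, and 53 of 199 a higher normalised level. Over all 1881 miRNAs these shares were 53.3% and 46.6%, and over the block 56.8% and 26.6%. Members of this kind are not tested below, since they did not pass the filter.

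Among these 16, miR-7066-3p had the highest signal. In liver at RT it was 0.53 on the 0 h array, 2.47 on that of 12 h, and 8.47, 16.57 and 24.08 on the late liver arrays. It was 4.15 in heart and 3.88 in brain at 96 h. Its 2 probes did not move equally: their mean probe signals on the late liver arrays were 12.53 and 3.84.

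Detection went with the cytosine content of the 3p arm. Mean cytosine content was 37.6% in the 116 sequenced members detected on no array, 42.4% in the 38 detected on 1 to 4 arrays, 46.2% in the 12 detected on 5 to 29 and 53.8% in the 9 detected on 30 or more. The run CCCC, searched on the mature strand as written and counted once per sequence, was present in 10.3%, 44.7%, 83.3% and 88.9% of those classes. It was present in 26.9% of all sequenced members and in 7.46% of the 1608 sequenced miRNAs of the array. Put the other way, 18 of 47 members with CCCC (38.3%) were detected on 5 or more arrays and 3 of the members without it (2.34%). Among miRNAs outside the block the shares were 58.6% with CCCC and 44.3% without it. The part of probe hybridisation in this was not tested.

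**Figure D3:**
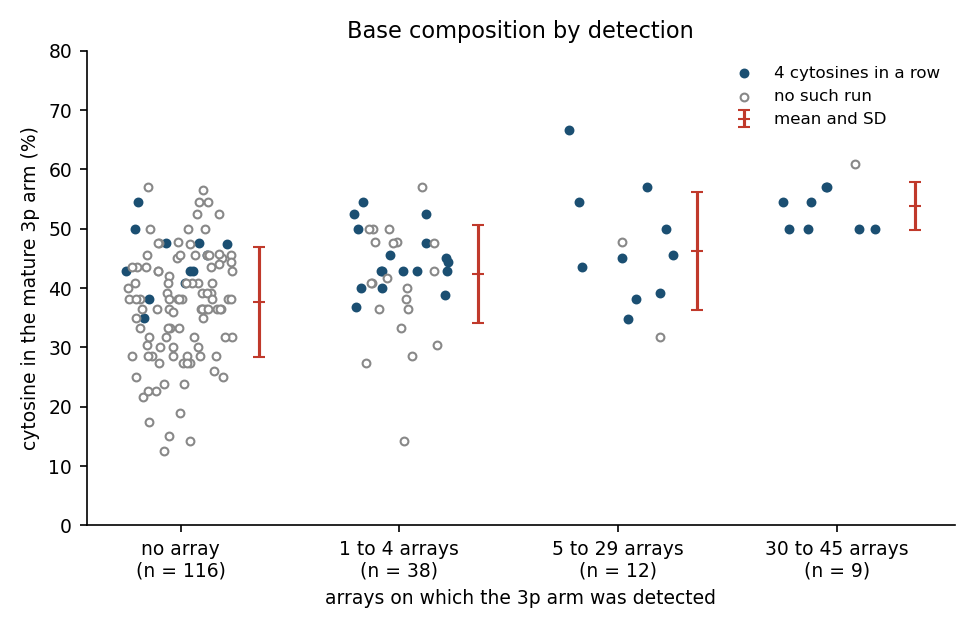
Cytosine content (percent of bases) of the 175 sequenced members in 4 classes of the number of arrays on which each was detected; points are members. The class means are 37.6%, 42.4%, 46.2% and 53.8% from no array to 30 or more arrays, with wide overlap between neighbouring classes.

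Levels were compared for the 23 members detected on 5 or more arrays, within a fit of all 815 miRNAs that passed the same filter. A member could pass the filter through the class of arrays in which it was high, so the counts below describe the 23 and not the block. The members detected only on arrays with RIN of 6 or lower were miR-6982-3p, miR-7016-3p, miR-7036b-3p, miR-7062-3p, miR-7082-3p and miR-7083-3p. For these a higher level at low RIN is partly set by the filter. Levels are variance-stabilised log2 values (VSN), which for small signals can be below 0. This scaling fits an offset and a factor per array over the miRNAs of the array, with some of the more variable ones left out. The level of a miRNA that sits at background depends on both, and by how much was not tested. The 809 miRNAs never detected had a median level of -0.854 on arrays with RIN over 6 and of -1.26 on arrays with RIN of 6 or lower.

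**Figure D4:**
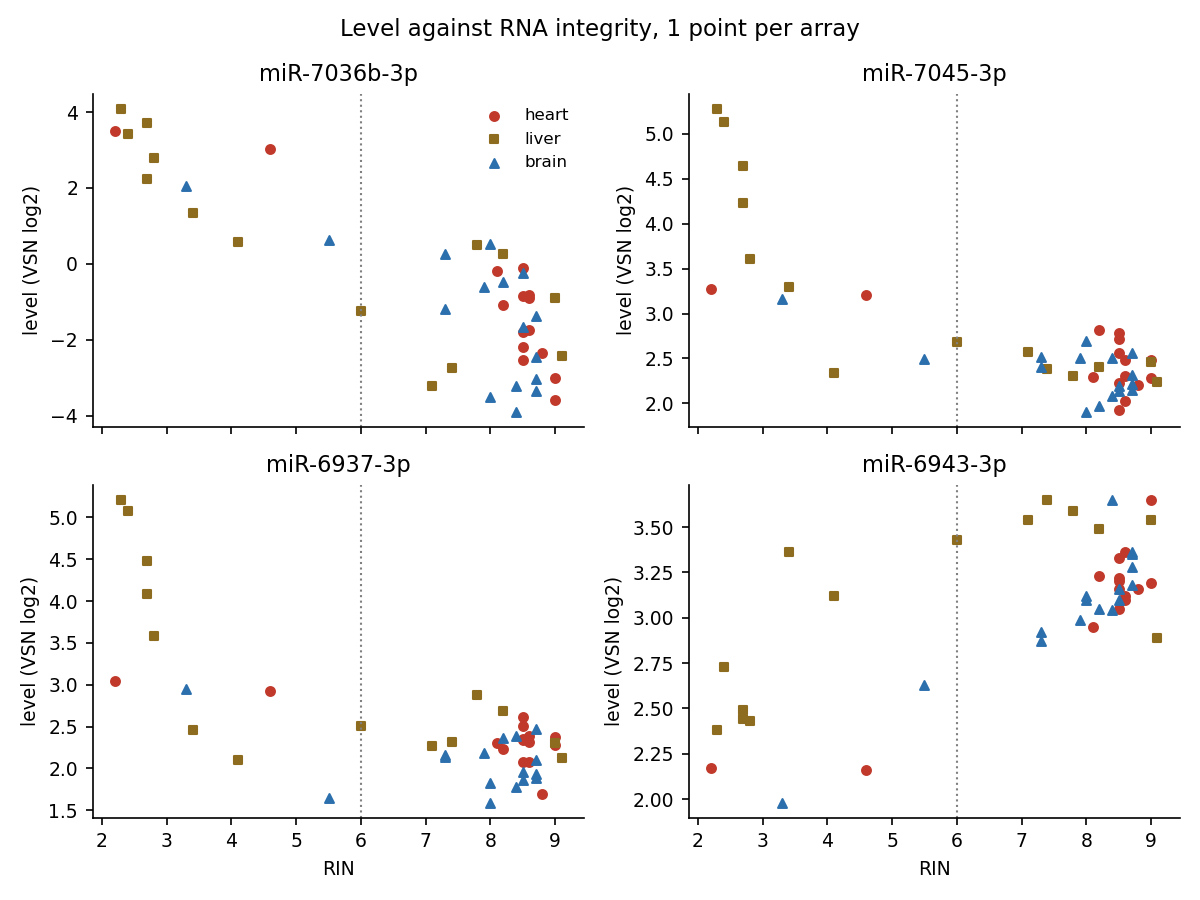
Normalised level (VSN log2) of miR-7036b-3p, miR-7045-3p, miR-6937-3p and miR-6943-3p against RIN on the 45 arrays, coloured by tissue. On the RT 96 h array of each tissue the first 3 lie above all arrays of that tissue with RIN over 6, and miR-6943-3p lies below them. The brain array of RT 48 h (RIN 5.5) does not follow this for miR-7045-3p (2.49) and miR-6937-3p (1.65), which lie within the intact brain range.

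Over the 45 arrays, the level of 7 of the 23 members correlated with RIN at a Bonferroni adjusted p under 0.05, against 36.3% of the 815 miRNAs. The median correlation was -0.04 for the 23 members and -0.03 for the 815. Of the 7, 5 were higher at lower RIN (25.9% of the 815 were negative) and 2 were higher at higher RIN (10.4% were positive). The 5 were miR-7036b-3p (Pearson's r = -0.839, Spearman's rho = -0.703, adjusted p = 4.82e-10), miR-7045-3p (r = -0.821, rho = -0.622, adjusted p = 4.27e-09), miR-6937-3p (r = -0.743, rho = -0.477, adjusted p = 4.29e-06), miR-7046-3p (r = -0.615, rho = -0.331, adjusted p = 0.00562) and miR-7082-3p (r = -0.563, rho = -0.224, adjusted p = 0.0456). The permutation p of r was 1e-05, the smallest that 100000 permutations can give, for the first 4 and 0.00018 for miR-7082-3p. The permutation p of rho was 1e-05, 3e-05, 0.00101, 0.0278 and 0.14 in the same order. Of these 5, miR-7036b-3p and miR-7082-3p passed the filter only through arrays with RIN of 6 or lower. Their higher level at low RIN is therefore partly set by the filter. With Benjamini-Hochberg adjustment in place of Bonferroni, 15 members passed, against 74% of the 815. In limma with the tissue or the slide as a block 19 or 18 passed, counts given without a share of the 815. The weaker of these calls were not stable. The call of miR-7082-3p was lost on leaving out any 1 of 27 arrays and that of miR-7046-3p on leaving out the liver array of RT 48 h or 96 h.

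These correlations held within tissues for some members only. For miR-7036b-3p r was -0.89 in heart, -0.834 in liver and -0.7 in brain, and it was -0.8 when the 2 arrays of most extreme RIN were left out. For miR-7045-3p it was -0.755, -0.838 and -0.699 in the tissues and -0.816 without those 2 arrays. For miR-7046-3p it was -0.135, -0.743 and -0.112, so that the relation rested on liver. Over the 33 arrays with RIN over 6 alone, none of the 23 members correlated with RIN, and r was -0.25 for miR-7036b-3p and -0.175 for miR-7045-3p. For miR-7046-3p and miR-7082-3p the sign turned there, to 0.201 and 0.332. The 12 arrays with lower RIN are therefore what these correlations rest on.

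The 2 members higher at higher RIN were miR-6943-3p (r = 0.71, rho = 0.509, adjusted p = 3.74e-05) and miR-7055-3p (r = 0.57, rho = 0.492, adjusted p = 0.0357), and without scaling of the arrays both turned sign, to -0.185 and -0.0753. Their permutation p of r was 2e-05 and 7e-05. The call of miR-7055-3p was lost on leaving out any 1 of 19 arrays. The signal of miR-6943-3p had a median of 7.19 on intact heart arrays and was 6.17 and 8.38 on the degraded ones, while in liver at RT it was 5.42 at 0 h and 9.08, 9.54 and 11.78 on the late liver arrays.

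The member with the strongest correlation with RIN, miR-7036b-3p, lies within the span of the Add1 gene, which codes for the membrane skeleton protein adducin. It was detected on 8 arrays, all with RIN of 6 or lower: heart at RT for 48 h and 96 h, liver at RT from 6 h on and brain at RT for 96 h. On the 13 intact heart arrays its level ran from -3.59 to -0.11 (median -1.73), and on the degraded ones it was 3.03 and 3.51. The heart classes did not overlap. On the 14 intact brain arrays it ran from -3.89 to 0.52 (median -1.52), and on the degraded ones it was 0.62 and 2.05, just clear of the intact range.

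In liver the 6 intact arrays ran from -3.21 to 0.50 (median -1.66). The degraded ones ranged from -1.25 at RT for 1 h (RIN 6.0) through 0.58 at 3 h and 1.33 at 4 °C for 48 h to 4.09 at RT for 96 h, and the classes overlapped. Its signals in liver at RT were -0.78, -0.66, 0.31, 7.96, 5.67, 23.26, 16.06 and 41.79 from 0 h to 96 h. A signal above background thus first appeared at 6 h. In heart at RT for 96 h the signal was 23.22 and in brain 8.08. Both probes of this miRNA gave the same picture, with mean signals of 16.47 and 10.56 on the late liver arrays and below 0 on the intact arrays of each tissue.

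**Figure D5:**
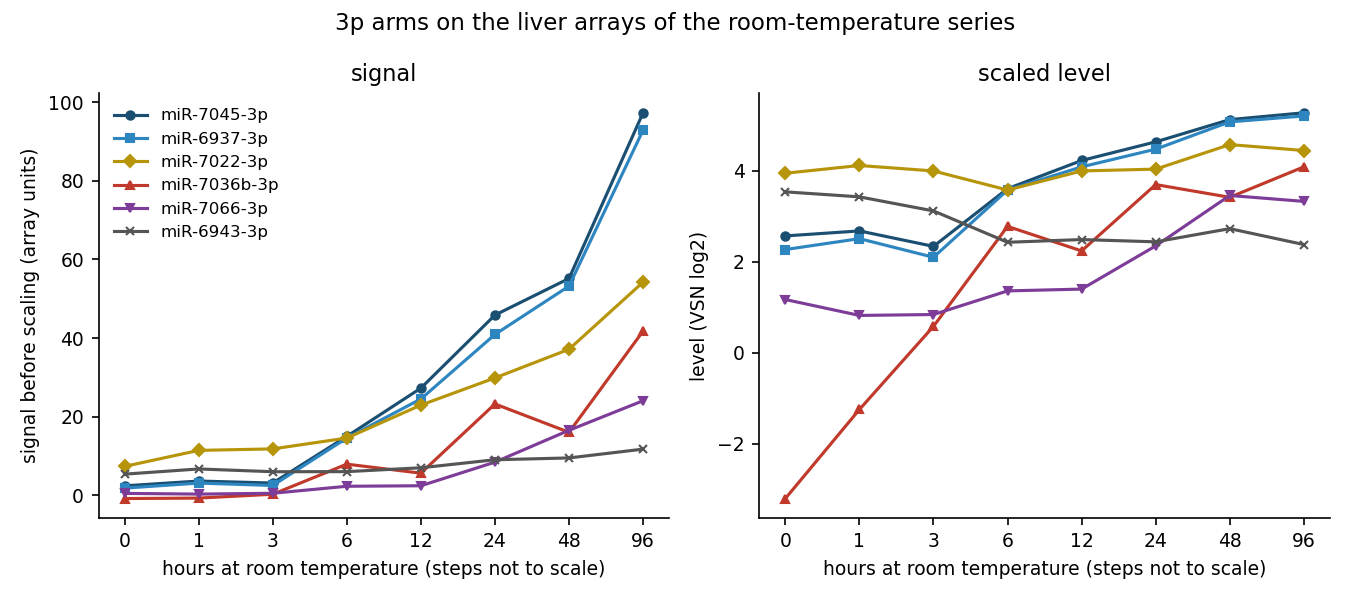
Signal (scanner units, left panel) and normalised VSN log2 level (right panel) of miR-7045-3p, miR-6937-3p, miR-7022-3p, miR-7036b-3p, miR-7066-3p and miR-6943-3p on the 8 liver arrays at RT against storage time in hours. The signal of miR-7045-3p goes from 2.45 at 0 h to 97.27 at 96 h, while that of miR-6943-3p goes from 5.42 to 11.78.

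Next to it, miR-7045-3p and miR-6937-3p ran together. They lie in Chd4, a chromatin remodeller gene, and Adi1, a gene of the methionine salvage pathway, on different chromosomes. The signals of miR-7045-3p in liver at RT were 2.45, 3.67, 3.16, 15.02, 27.28, 45.85, 55.16 and 97.27 from 0 h to 96 h. Those of miR-6937-3p were 1.87, 3.15, 2.54, 14.59, 24.53, 40.93, 53.22 and 92.85. Both were flat up to 3 h and higher on each later array. At 96 h at RT the heart signals were 19.43 and 16.4, and the brain signals 18.82 and 16.07. Over the 45 arrays their levels correlated at r = 0.933, the highest of the 253 pairs among the 23 members. The pair shares slides, animals and RIN, so this is a description of how alike the patterns are. The next most alike pairs were miR-6923-3p with miR-7069-3p (r = 0.894) and miR-7047-3p with miR-7082-3p (r = 0.877).

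The widely seen miR-7022-3p behaved otherwise. Its level was 3.79 ± 0.14 on intact heart arrays (SD, n = 13), 4.03 ± 0.36 on intact liver arrays (n = 6) and 3.65 ± 0.19 on intact brain arrays (n = 14). On degraded arrays it was 4.12 ± 0.31 in liver (n = 8), 3.15 on both arrays of heart and 3.26 and 2.96 in brain. Its signals in liver at RT were 7.39, 11.46, 11.84, 14.6, 22.97, 29.88, 37.16 and 54.23, so the signal was higher on later arrays while the normalised level in liver differed between the RIN classes by less than its SD.

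Comparing the RIN classes in liver, 6 of the 23 members had a 2-sided exact Wilcoxon-Mann-Whitney p under 0.05, against 41.1% of the 815. With Benjamini-Hochberg adjustment 4 members passed, against 27.7%. The smallest p this design of 8 against 6 arrays allows is 0.000666. Of the 6, 3 were higher at low RIN (33.5% of the 815) and 3 lower (7.61%). The median difference was -0.10 for the 23 members, 0.33 for the 815 and 2.18 for the 105 5p arms of the block that passed the filter. All differences in what follows are of mean VSN log2 level.

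The members higher at low RIN in liver were miR-7036b-3p, miR-7045-3p and miR-7046-3p. Since miR-7036b-3p was detected on none of the intact liver arrays and on 5 of the 8 others, its mean of 2.11 ± 1.80 against -1.42 ± 1.60 gives only a bound of at least 1.4-fold (exact p = 0.00466, Benjamini-Hochberg adjusted 0.0286). For such a bound the undetected side is set, on each array, to the lowest level called detected there or to its own level if higher. The mean of miR-7045-3p was 3.90 ± 1.10 against 2.39 ± 0.12, a difference of 1.51 (exact p = 0.00799, adjusted 0.0322). Its 6 intact arrays lay between 2.24 and 2.57, and of the degraded ones only RT 3 h (2.34) lay inside that range. For miR-7046-3p the difference was 0.88 (exact p = 0.0426) and did not pass adjustment (0.104), and this call was lost on leaving out any 1 of 10 of the 14 liver arrays.

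Leaving out the late liver arrays, an alternative chosen after seeing the data, left miR-7036b-3p called, with a difference of 2.56 (exact p = 0.0303), and ended the calls of miR-7045-3p (0.84, exact p = 0.0519) and miR-7046-3p (0.39, exact p = 0.247). In limma 2 of the 23 members, miR-7036b-3p and miR-7045-3p, passed in liver (31% of the 815), and 0 did once the slide entered as a block.

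The members lower at low RIN in liver were miR-6943-3p (-0.65, exact p = 0.00466, adjusted 0.0286), miR-7080-3p (-0.44, exact p = 0.00799, adjusted 0.0322) and miR-7052-3p (-0.34, exact p = 0.0293, adjusted 0.0804), and without scaling all 3 turned sign, to 0.35, 0.60 and 0.74. The call of miR-7052-3p was lost on leaving out any 1 of 7 liver arrays. Without scaling the median of all 815 moved up by 0.72 to 1.041, with 679 above 0 and 65 below. Of the members, 23 of 23 were then above 0, with a median of 0.98. The intact levels of miR-6943-3p were 2.89 at 4 °C for 0 h and 3.49 to 3.65 on the others, and the degraded ones were 2.38 to 3.43. The never-detected miRNAs had a median difference of -0.627 in the same comparison.

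In heart, with 2 degraded against 13 intact arrays, limma called 14 of the 23 members at a Benjamini-Hochberg adjusted p under 0.05, against 42.5% of the 815. Only 2 were higher on degraded arrays (31% of the 815) and 12 were lower (11.4%). The median difference was -0.64 for the 23 members, -0.04 for the 815 and 2.09 for the 5p arms. Among 105 5p arms tested, 65 were higher and 0 lower.

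The 2 higher in heart were miR-6976-3p and miR-7036b-3p. For miR-6976-3p, which lies in the gene of serum response factor (Srf), the 13 intact arrays ran from 2.53 to 3.02 (median 2.69) and the degraded ones were 4.19 and 4.13. The classes did not overlap, and the difference was 1.42 ± 0.249 (SE, limma adjusted p = 0.000101). In signal, it was 4.03 to 6.28 on intact arrays and 30.15 and 36.29 on the degraded ones. Its 2 probes disagreed in size, with mean signals of 4.92 and 1.80 on intact arrays and of 31.52 and 2.89 on degraded ones. For miR-7036b-3p the bound was at least 3.65-fold (limma adjusted p = 0.000521).

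The 12 lower in heart were miR-7024-3p, miR-6943-3p, miR-7085-3p, miR-6934-3p, miR-7055-3p, miR-7052-3p, miR-6923-3p, miR-6968-3p, miR-7080-3p, miR-7016-3p, miR-7069-3p and miR-7022-3p, and without scaling 10 of these 12 turned sign, all but miR-7024-3p and miR-7085-3p. The never-detected miRNAs had a median difference of -0.6891 in this comparison, and without scaling the median of all 815 moved up by 1.07. For miR-6943-3p the means were 2.17 against 3.21, a difference of -1.05 ± 0.25 (SE, limma adjusted p = 0.00131). For miR-7024-3p the means were 0.12 against 1.75 (limma adjusted p = 0.000387), but it was detected on no heart array of either class, so no fold is given. For miR-7016-3p, detected on 1 of 2 degraded and on none of the intact heart arrays, the lower level (1.10 against 1.88) goes against its detection.

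Brain had the same design with 2 against 14 arrays, and 10 of the 23 members were called, against 22.5% of the 815. Again 2 were higher (16.2% of the 815) and 8 lower (6.26%), and the median difference was -0.39 for the 23, -0.18 for the 815 and 1.49 for the 5p arms. The 2 higher were the same as in heart. The degraded levels of miR-6976-3p were 2.87 at 48 h and 3.82 at 96 h, against 2.30 to 3.15 on the intact arrays (median 2.48), so the 48 h array lay inside the intact range (difference 0.83 ± 0.248, SE, limma adjusted p = 0.0158). For miR-7036b-3p the bound was at least 1.08-fold (limma adjusted p = 0.0308). The 8 lower were miR-7024-3p, miR-6923-3p, miR-6968-3p, miR-6943-3p, miR-7085-3p, miR-7069-3p, miR-7052-3p and miR-7080-3p, and without scaling 4 of these 8 turned sign, namely miR-7052-3p, miR-7069-3p, miR-7080-3p and miR-7085-3p. Of them miR-6923-3p and miR-7069-3p were each detected on 1 of 2 degraded and on none of the intact brain arrays. Their lower levels, 1.34 against 2.32 for miR-6923-3p (limma adjusted p = 0.00556) and 1.32 against 2.10 for miR-7069-3p, go against their detection.

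The heart and the brain comparison each had only 2 degraded arrays. Leaving out the array of RT 96 h leaves 1 degraded array in that tissue, which weakens the test for every miRNA. Whether the calls of the members rest on that array can therefore not be decided. On the RT slides alone, 6 members were called in heart and 0 in brain. These counts are given without a share of all miRNAs tested, so they do not set the members apart.

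The difference between RIN classes was itself unlike in liver and in heart for 1 member. In the contrast of the liver effect with the heart effect, 0.368% of the 815 miRNAs were called, and among the 23 members this was miR-6976-3p, with a difference of the effects of -1.52 ± 0.306 (SE, limma adjusted p = 0.00932). Its level in liver was 2.38 to 2.81 on intact arrays (median 2.60) and 1.89 to 3.11 on degraded ones (median 2.38). On the late liver arrays it was 3.11, 2.99 and 2.78. Its liver signals at RT nevertheless went from 2.08 at 0 h to 16.09 at 96 h. The degraded classes were unlike, with RT 48 h and 96 h in heart and RT 1 h to 96 h and 4 °C 48 h in liver. Tissue, storage time and degree of degradation therefore cannot be told apart in this contrast. For liver against brain (0.613% of the 815) and heart against brain (0% of the 815), limma called 0 of the 23 members. At an unadjusted p under 0.05 there were 5 members and 99 of the 815 in the first of these contrasts, and 1 member and 44 of the 815 in the second.

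Storage time at RT was followed over 24 arrays, and 3 of the 23 members correlated with it at a Bonferroni adjusted p under 0.05, against 12.3% of the 815. miR-6976-3p was higher at longer times (r = 0.737, rho = 0.733, adjusted p = 0.0322), with r of 0.912 in heart, 0.56 in liver and 0.925 in brain. The permutation p of this r was 0.00034 and that of rho 0.00014. miR-6943-3p (r = -0.774, rho = -0.814, adjusted p = 0.00726) and miR-7024-3p (r = -0.763, rho = -0.759, adjusted p = 0.0121) were lower at longer times, though without scaling the sign of miR-6943-3p turned to 0.464. Positive calls were made for 10.3% of the 815 and negative calls for 1.96%. Without the brain array of RT 96 h none of the 3 calls remained. The call of miR-6976-3p was lost on leaving out any 1 of 12 of the 24 arrays, and that of miR-7024-3p also without the heart array of RT 96 h. With Benjamini-Hochberg adjustment 12 members passed, against 53.9% of the 815.

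At 4 °C, over 21 arrays, 0 of the 23 members correlated with storage time after Bonferroni adjustment, against 0.982% of the 815, and 0 did after Benjamini-Hochberg adjustment (5.28% of the 815). At an unadjusted p under 0.05 there were 3 members (miR-7036b-3p, miR-6923-3p and miR-7085-3p), and 142 of the 815. By Spearman's correlation and by limma with the tissue as a block, 1 member was called in each case, miR-7036b-3p. It had r = 0.553 and rho = 0.8 with hours at 4 °C, at levels from -3.34 to 1.33, and was detected on no array at 4 °C. The members detected per array at 4 °C likewise stayed in a narrow range, with 8 to 12 in heart, 5 to 10 in brain and 7 to 15 in liver.

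On intact RNA the tissue differences of the members depended on the scaling, and which scaling turned their signs differed between the comparisons. In brain against liver, limma called 17 of the 23 members lower and 0 higher, where 14.7% of the 815 were lower and 58.7% higher (73.4% in all), and without scaling 14 of the 17 turned sign. The median difference of the 23 members was then 0.23, and it was 0.00 in brain against heart (rounded from just below 0). With quantile scaling, normexp and both 75th percentile scalings, 0 of the 17 turned sign. On the 809 never-detected miRNAs the median difference of the VSN levels was -0.7613. Of the 17, 5 were detected on no array of either class, and miR-7024-3p, detected on 2 of 6 intact liver and on no intact brain arrays, was at least 1.7-fold higher in liver (limma adjusted p = 5.95e-06). In brain against heart, 10 members were called (70.9% of the 815), 2 higher (48.7%) and 8 lower (22.2%). None of these 10 turned sign without scaling. The 2 higher, miR-7083-3p and miR-7062-3p, were detected on no intact array of either tissue, and miR-7062-3p turned sign with quantile scaling, with normexp and with the 75th percentile over all miRNAs. In liver against heart, 6 members were called (56.1% of the 815), 5 higher (10.4%) and 1 lower (45.6%). Of these, miR-7016-3p, miR-6923-3p, miR-7062-3p, miR-7069-3p and miR-7024-3p were higher in liver, where without scaling miR-6923-3p, miR-7062-3p and miR-7069-3p turned sign, and miR-7055-3p was lower, a sign that turned with normexp and with one of the 75th percentile scalings. Of these 5, miR-7024-3p was detected on 2 of the intact liver arrays and the other 4 on none. With the pieces of 1 animal stored for the same time as a block, 3 members were called in liver against heart, all higher in liver. This alternative was chosen after seeing the data, and no share of the 815 is given for it. Of the 3, miR-7024-3p was among the 6 above and miR-7036b-3p and miR-7083-3p were not. Each slide, as defined above, held 1 tissue, so slide and tissue cannot be told apart in these comparisons.

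Older mirtrons behaved in their own ways. Of 6 fixed as a list for comparison, the 3p arm of miR-877 was detected on all 45 arrays, that of miR-702 on 44, miR-3102 on 33 and miR-6769b on 17, and those of miR-1224 and miR-1981 on 0. Of the 4 past the filter, 0 correlated with RIN at the Bonferroni threshold and 1, miR-702-3p, was called higher at low RIN in liver. Their numbers are too small to set against the block.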

How the data were processed

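Agilent Feature Extraction 10.10.1.1, per the file headers, turned each scan into intensity values per spot, with flags for spots well above background and, per miRNA, a total gene signal and a detection flag. Intensity was deposited per array, and the log2 values of the authors' table were normalised by variance stabilisation (VSN). The methods and the labels differ on 1 storage time, and the labels' 12 h is used here. The members and lists were chosen with earlier results of these data known.

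VSN was refitted on the signals of all 46 arrays (least trimmed squares quantile 0.9) and differed by at most 0.0104 log2 units from the deposited log2 table. As stated above, the signal of an undetected miRNA was the sum of its probe signals. Each miRNA had 30 spots, none of them saturated. Python 3.11.15 with NumPy 2.4.6, pandas 2.3.3 and SciPy 1.17.1, and R 4.3.3 with limma 3.58.1, were used. The level tests took the 815 miRNAs detected on at least 5 arrays, as in the methods: Pearson's r with Bonferroni adjustment, the exact Wilcoxon-Mann-Whitney test in liver, and limma with Benjamini-Hochberg adjustment for heart, brain and the tissues, with 1 mean per tissue and RIN class (threshold RIN 6). Scripts were tested on simulated data. Every member past the filter is named, full values are given for those called or detected on all arrays, and members on 3 or 4 arrays are named with their count. Sequences are from RefSeq (GRCm38.p6) for 1608 of 1881 miRNAs. Alternatives changed the scaling, the background correction (normexp, offset 50), the filter, the test, the arrays and the blocks. The unstored heart array of the 4 °C series was left out of the main tests, following the methods, and enters only an alternative and the closing section. The methods state that the tissues are of the same individual, with different animals at each temperature, so pieces of 2 tissues at the same temperature and time were paired. On arrays with RIN over 6, the deviations from the tissue means over the 815 miRNAs had a median correlation of 0.177 in 24 such pairs and of 0.00787 in 320 other pairs of 2 tissues. The sequence and position of 1 widely detected member are not reported here.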

Additional observations from a re-analysis of the deposited data

Results flagged for a closer look

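The level of miR-6976-3p differed between the RIN classes unlike in liver and in heart. The difference of the 2 effects was -1.52 on the log2 scale (limma, adjusted over all miRNAs tested). The degraded classes of the 2 tissues held unlike storage times, so tissue and storage time cannot be told apart in it.

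Across 48 groups of 4 to 10 arrays, 4 levels lay far from the others of their group, and chance alone gives about 1 in 20 groups. On the liver array of 0 h at 4 °C, miR-6897-3p was at 2.28 where the other intact liver arrays had 2.81 to 3.11, miR-6943-3p at 2.89 against 3.49 to 3.65, and miR-6968-3p at 2.24 against 2.76 to 2.93. Of the 45 arrays analysed, that array also had the widest spread of signals among never-detected miRNAs (SD 1.74). On the liver array of RT 24 h, miR-7055-3p was at 0.66 where the other degraded liver arrays had 1.73 to 2.57.

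The heart array of 0 h at 4 °C, which was set aside, had 22 members detected, against 5 to 13 on the other heart arrays with RIN over 6. Of these 22, 9 were detected on no other array and 0 on another heart array with RIN over 6. Its lowest detected signal was 4.76. The paper removed this array for low quality of the microarray data. In all, 215 miRNAs were detected on it. Its never-detected miRNAs had a signal SD of 6.93, against at most 1.74 on the 45 arrays analysed.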

How the results depend on the processing

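All arrays carry the same replicate number, and only the tissue differences can be paired. With pieces of the same animal and storage time as a replicate block, added after seeing the data, 9, 3 and 14 members were called in brain against heart, liver against heart and brain against liver.

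The members called, in the order RIN, RT time, 4 °C time, liver, heart, brain, brain against heart, liver against heart and brain against liver, numbered 7, 3, 0, 6, 14, 10, 10, 6 and 17. Leaving out 1 array at a time gave 4 to 8, 0 to 4, 0 to 0, 4 to 8, 2 to 14, 0 to 10, 8 to 12, 2 to 12 and 13 to 17. The counts under alternatives in this section stand without the share of all miRNAs tested, so they do not set the members apart. In heart and in brain, leaving out a degraded array left only 1, so those counts do not show what the calls rest on.

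For RIN the count was 3 with either 75th percentile scaling, 12 without scaling, 2 with quantile scaling, 3 with normexp, 33 without the filter, 15 with Benjamini-Hochberg, 2 with Spearman, 0 on arrays with RIN over 6, 19 with a tissue block and 18 with a slide block. For RT time it was 0 and 1 with the 75th percentile over miRNAs detected on all arrays and over all miRNAs, 0 with quantile, 0 with normexp, 25 without the filter, 12 with Benjamini-Hochberg, 13 with a tissue block and 7 without the late liver arrays, an alternative added after seeing the data. For 4 °C time it was 1 with Spearman and 1 with a tissue block. In liver it was 14 with the 75th percentile over all miRNAs, 16 without scaling, 16 with quantile, 14 with normexp, 109 without the filter, 12 with a filter of 3 arrays, 2 with limma and 0 with limma and a slide block. In heart it was 6 without scaling, 115 without the filter, 8 with a filter of 10 arrays and 6 on the RT slides. In brain it was 4 with the 75th percentile over miRNAs detected on all arrays, 4 without scaling, 2 with normexp, 66 without the filter, 5 with a filter of 10 arrays and 0 on the RT slides.

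For brain against heart it was 4 and 19 with the 75th percentile over miRNAs detected on all arrays and over all miRNAs, 4 without scaling, 19 with quantile, 21 with normexp, and 137, 26 and 5 with no filter and filters of 3 and 10 arrays. For liver against heart it was 2 with the set-aside array, 20 and 14 with the 75th percentiles in the same order, 16 with quantile, 22 with normexp, and 60, 19 and 1 with those filters. For brain against liver it was 11 without scaling and 176, 39 and 10 with those filters.

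The members detected at 96 h over 0 h at RT, 1 array each, had ratios of 3.8 in heart, 6.67 in liver and 1.92 in brain. Counting members with at least 1 spot well above background gave 1.04, 3.38 and 1.19, and the share of all detected miRNAs gave 2.17, 2.85 and 1.18. Members detected on any array fell from 69 to 36 without the late liver arrays.

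Without scaling, 10 of the 12 members called lower in heart, 4 of the 8 in brain, 14 of the 17 in brain against liver and 3 of the 5 called higher in liver against heart turned sign. So did the correlation with RIN of miR-6943-3p (-0.185) and miR-7055-3p (-0.0753), that of miR-6943-3p with RT time (0.464), and the liver differences of miR-6943-3p (0.35), miR-7080-3p (0.60) and miR-7052-3p (0.74). On arrays with RIN over 6 the correlation with RIN turned for miR-7046-3p (0.201) and miR-7082-3p (0.332). Fewer or more features and arrays enter under the filters and subsets; otherwise the cause was not tested. Signals of members lie near the detection limit, which limits their levels.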
